A study of Mus musculus with 8 samples.

Results

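The 38 Hox genes described here are members of the Hoxa, Hoxb, Hoxc and Hoxd clusters. The rule takes them by name from the annotation and uses no methylation value. They were chosen with earlier results of these data known, so contrasts with all CpGs and genes are not blind to the data. A CpG belonged to a member when it lay in the gene body or in the 1500 bases upstream of the gene start. This gave 2177 of the 897285 CpGs that had at least 5 reads in every mouse, and 38 of the 24433 genes with at least 3 such CpGs. The CpGs were spread over Hoxd (655), Hoxa (610), Hoxb (475) and Hoxc (437), every member had at least 11 of them (Hoxb1), and Hoxd3 had the most (209). Neighboring Hox genes overlap in the annotation, so 264 CpGs counted for more than 1 member.

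Hepatocytes came from perfused livers of female C57Bl6/J mice, an inbred strain, all fed a control diet. The mid-aged group had 4 mice of 40 weeks and the young group 4 mice of 10 weeks. The mice were separate animals, so the spread given below is between mice, and each gave 1 library of reduced representation bisulfite sequencing (RRBS). In RRBS the enzyme MspI cuts DNA at CCGG, bisulfite turns unmethylated cytosines into a base read as T, and only CpGs close to a cut site are read. The comparison asks how the methylation of these genes differed between the ages.

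Hox genes encode homeodomain transcription factors that give cells their position along the body axis. In mammals they lie in 4 clusters, and genes of like position in their clusters form paralogue groups numbered 1 to 13, with low numbers acting in the hindbrain and neck and high numbers in the trunk, the limbs and the tail. In adult cells that do not use them, Hox genes are typically held silent by Polycomb proteins, over CpG islands that carry little DNA methylation.

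Of the 2177 Hox CpGs, 2 were called, against 0.163% of all tested CpGs, which is too few calls to tell the shares apart. Both were higher in mid-aged mice and lie at the 3′ end of Hoxd4, which patterns the hindbrain and the cervical vertebrae. Their surroundings are shown first, with 3 contrasting stretches of other members that were chosen after their values were seen. The sequences come from the GRCm38.p6 genome, are written 5′ to 3′ on the strand of the gene, and have the CG of each tested CpG in capitals.
Hoxd4, last coding exon, chr2:74728290-74728393, + strand: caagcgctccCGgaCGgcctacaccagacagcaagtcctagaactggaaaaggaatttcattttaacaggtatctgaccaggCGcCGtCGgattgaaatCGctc
Hoxd3, intron after the end of Hoxd4, chr2:74729330-74729507, + strand: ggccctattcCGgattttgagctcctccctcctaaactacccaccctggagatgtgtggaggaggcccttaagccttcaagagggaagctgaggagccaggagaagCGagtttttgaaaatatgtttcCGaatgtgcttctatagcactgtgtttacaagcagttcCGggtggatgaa
Hoxa5, intron and last coding exon, chr6:52202710-52202997, - strand: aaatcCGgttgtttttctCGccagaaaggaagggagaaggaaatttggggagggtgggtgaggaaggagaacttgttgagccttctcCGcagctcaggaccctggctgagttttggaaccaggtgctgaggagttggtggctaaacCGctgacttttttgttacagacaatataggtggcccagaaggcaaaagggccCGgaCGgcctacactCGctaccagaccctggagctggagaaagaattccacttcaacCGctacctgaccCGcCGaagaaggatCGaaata
Hoxb3, first intron, chr11:96332684-96332865, + strand: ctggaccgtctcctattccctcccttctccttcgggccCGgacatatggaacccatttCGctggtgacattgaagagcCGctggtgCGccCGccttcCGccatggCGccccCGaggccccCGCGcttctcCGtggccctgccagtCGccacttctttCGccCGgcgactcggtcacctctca
Hoxa11, first coding exon, chr6:52245227-52245408, - strand: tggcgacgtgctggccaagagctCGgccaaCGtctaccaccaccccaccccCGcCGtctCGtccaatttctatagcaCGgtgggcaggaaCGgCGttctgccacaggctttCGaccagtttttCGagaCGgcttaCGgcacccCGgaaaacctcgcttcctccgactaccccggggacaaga
The Hoxd4 stretch and the exon part of the Hoxa5 stretch read through the homeobox, the part of the gene that encodes the DNA-binding homeodomain. The called CpG of the Hoxd4 stretch begins at letter 83 and that of the Hoxd3 stretch at letter 129. The Hoxd3 stretch held 2.25 CpGs per 100 bases, the Hoxd4 stretch 6.73, the Hoxa5 stretch 3.82, and the Hoxb3 and Hoxa11 stretches 9.89 each.

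The Hox genes were measured over much CpG island sequence. The median Hox CpG had 13 CpGs within 100 bases, itself included, against 9 over all tested CpGs, and 72.2% of Hox CpGs were dense (10 or more) against 48.4%. RefSeq promoters on GRCm38.p6, taken from 250 bases before to 50 after the start, were at hand for 22 of the 38 members. Of these 24 promoters 19 (79.2%) held the MspI motif CCGG, which reads the same on both strands, against 52.8% of 32851 promoters of all genes, and the median was 14.5 CpGs per promoter against 7.

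Depth differed between the ages. Reads over CpGs, each read counted at every CpG it covers, numbered 84639955 to 118395064 per library in the mid-aged and 46321447 to 72710972 in the young mice. On Hox CpGs the median coverage was 55, 100, 73 and 121 reads in mid-aged mice 1 to 4, and 25, 71, 47 and 47 in young mice 1 to 4. Young mouse 1 was the shallowest library. The mean methylation of all tested CpGs was 44.2% ± 0.0245 in the mid-aged and 43.9% ± 0.195 in the young group (SD, n = 4 each). Percents come from reads without molecular identifiers, so intervals printed below cover counting error only.

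The label of the tissue was checked on promoters of marker genes, and RRBS reached few of them. Among hepatocyte markers 4 of 18 promoters had at least 3 tested CpGs (Apob, Apoh, Fgb and Ass1), with a mean of 13.5% ± 1.73 in mid-aged and 10.3% ± 2.25 in young mice (SD, n = 4 each), and ranges of 12.2 to 16% and 8.59 to 13.6%. Of the 12 Kupffer cell and leukocyte markers only Adgre1 could be read, at 85.2% ± 7.81 and 89.2% ± 10.1. For sinusoidal endothelial cells, 2 of 12 promoters (Kdr and Eng) had means of 36.9% and 36.2%. For hepatic stellate cells 8 of 12 had 20.3% and 19.8%, and for cholangiocytes 5 of 10 had 36.8% and 36.9%. None of these promoters was called by limma, where a call is an adjusted p under 0.05, and 3 of the 20 had an unadjusted p under 0.05 (Reln, Col1a2 and Sox9). In bulk DNA a shift in the share of other cell types and a change of methylation within hepatocytes cannot be told apart, and the part of other cell types in the values below was not tested.

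The Hox genes had low methylation at both ages. Their CpGs averaged 7.34, 7.27, 7.47 and 7.47% in the mid-aged mice and 6.28, 6.06, 6.49 and 6.36% in the young mice. Every mid-aged mouse lay above every young mouse, with a difference of 1.09 percentage points between means of 7.39% ± 0.0982 and 6.3% ± 0.178 (SD, n = 4 each). With the reads pooled over CpGs in place of averaging CpGs, an alternative added after the data were seen, the values were 6.64, 7.58, 7.8 and 7.45% against 7.01, 6.32, 7.02 and 6.94%. The difference was then 0.543 percentage points, and the ages overlapped. Means over the members are described here without a test. Of the Hox CpGs 66.3% had a higher mean in mid-aged mice and 33% a lower one, against 53.7% and 41.6% of all tested CpGs. The median difference of a Hox CpG was 0.979 percentage points, against 0.212 over all tested CpGs.

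**Figure D1:**
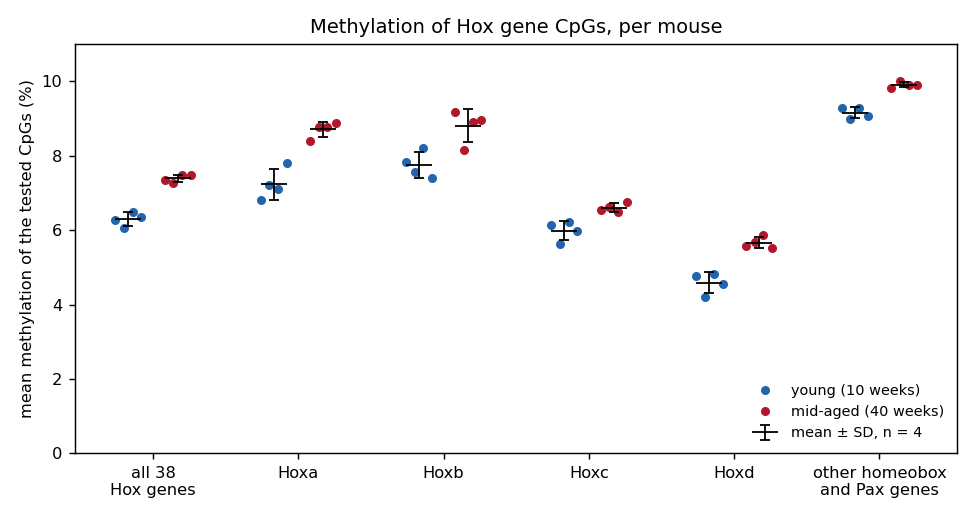
Mean methylation (%, vertical axis from 0) of the tested CpGs per mouse, for the 38 Hox genes, each cluster, and the other homeobox and Pax genes. Points are mice (blue young, red mid-aged) and black marks the mean ± SD of 4 mice. The mid-aged mice lie above the young mice in each set except Hoxb, where the lowest mid-aged mouse (8.16%) is just below the highest young mouse (8.21%).

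Among the clusters Hoxd was the lowest and Hoxa and Hoxb the highest. The Hoxa CpGs, on chromosome 6, averaged 8.39, 8.76, 8.78 and 8.88% in mid-aged mice and 6.81, 7.2, 7.11 and 7.8% in young mice, a difference of 1.47 percentage points. The Hoxd CpGs, on chromosome 2, averaged 5.57, 5.67, 5.88 and 5.53% against 4.77, 4.21, 4.83 and 4.54%, a difference of 1.07. In both of these clusters the ages were fully apart. The Hoxb CpGs, on chromosome 11, averaged 9.17, 8.16, 8.9 and 8.97% against 7.84, 7.56, 8.21 and 7.39%, a difference of 1.05 with overlapping groups. The Hoxc CpGs, on chromosome 15, averaged 6.54, 6.63, 6.49 and 6.76% against 6.13, 5.63, 6.22 and 5.97%, the smallest difference (0.615) although the groups did not overlap. With pooled reads the cluster differences were 0.411 for Hoxa, 0.925 for Hoxb, 0.26 for Hoxc and 0.799 for Hoxd, and the ages overlapped in Hoxa, Hoxc and Hoxd. Pooled means weigh CpGs by where each library has its reads, and over all tested CpGs they ran from 25.3 to 53.8% between libraries.

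Single CpGs were compared by a quasi-binomial model of methylated and unmethylated reads with Benjamini-Hochberg adjustment over all tested CpGs, and a called CpG had to differ by 5 percentage points or more, with an adjusted p under 0.05 and, within each age, a variance of the fraction under 0.05. By this rule 2 of the 2177 Hox CpGs rose and 0 fell, against 0.0615% of all tested CpGs that rose and 0.102% that fell. These 2 calls are too few to set the Hox genes apart from all tested CpGs. At an unadjusted p under 0.05, 201 Hox CpGs (9.23%) were higher in mid-aged mice and 33 (1.52%) were lower, against 5.16% and 3.93% of all tested CpGs. In 107 Hox CpGs (4.92%) every mid-aged mouse lay above every young mouse, and in 7 (0.322%) below, against 2.33% and 1.24% of all tested CpGs. Hox genes held 0 runs of 3 or more neighboring CpGs called in the same direction within 200 bases of each other, and all tested CpGs held 40 runs higher in mid-aged mice and 79 lower. With only 2 called CpGs a run of 3 could not occur in Hox genes, so this 0 adds nothing to the calls. With limma on M values in place of the quasi-binomial model 8 Hox CpGs were called, all of them higher in mid-aged mice. That model called 0.169% of all tested CpGs, 864 higher and 652 lower. It kept only the larger of the 2 gains above, and its other Hox calls were different CpGs with differences of 5.02 to 10 points.

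The larger of the 2 gains lay past the end of Hoxd4. The CpG at position 74729458 of chromosome 2 (mm10, the build also known as GRCm38) is 298 bases beyond the 3′ end of Hoxd4, in the first intron of the long Hoxd3 transcript, in a CpG-poor stretch with 3 CpGs within 100 bases. It was methylated in 49.3, 68.5, 61.6 and 61.1% of reads in mid-aged mice 1 to 4 (67, 251, 203 and 252 reads) and in 29.2, 25.2, 26.8 and 25% in young mice (72, 131, 123 and 100 reads). The lowest mid-aged mouse had a Wilson 95% interval of 37.7 to 60.9%, the highest young mouse one of 19.9 to 40.5%, and the groups did not overlap. The difference of 33.6 percentage points (adjusted p = 1.24e-04 by the quasi-binomial test, n = 4 each) was the largest gain of any Hox CpG. All its reads came from the reverse strand. The call was kept without each mouse in turn, with differences of 30.8 to 37.2 points.

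The other gain lay in the homeobox of Hoxd4. The CpG at position 74728372 of chromosome 2 is in the coding part of the last exon (positions 74728262 to 74728584), 788 bases before the 3′ end of the gene, with 11 CpGs within 100 bases. It was read as methylated at 16.4, 19.8, 21.9 and 20.5% in mid-aged mice (250, 394, 292 and 599 reads) and 4.11, 6.84, 12.3 and 7.14% in young mice (73, 307, 146 and 168 reads). The groups were apart by 12.1 percentage points between means (adjusted p = 0.0109 by the quasi-binomial test, n = 4 each). On the reverse strand alone the mid-aged mice read 18.3, 17.9, 18.1 and 23.6% and the young mice 6.25, 6.52, 9.52 and 9.76%. On the forward strand alone they read 14.3, 21.6, 25.3 and 17.7% against 0, 7.1, 14.5 and 4.65%, with an overlap of mid-aged mouse 1 and young mouse 3. This call was lost with limma on M values (adjusted p = 0.204), without mid-aged mouse 2, 3 or 4 or young mouse 2 (adjusted p = 0.0631, 0.062, 0.0847 and 0.075 by the quasi-binomial test), and with reads thinned to equal coverage (9.25 points, adjusted p = 0.325).

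CpGs beside both calls were mostly higher in mid-aged mice as well. Of the 8 tested CpGs in the coding part of the last Hoxd4 exon, the called one included, 7 had a higher mean in mid-aged mice. The average of all 8 was 15.1, 18.5, 20.2 and 18.7% against 8.38, 9.72, 10.1 and 14%. The CpG at 74728414, 42 bases after the called one, read 43.6, 49.7, 40.7 and 45.8% in mid-aged mice and 4.44, 26.5, 11.3 and 37.5% in young mice, a difference of 25 points that did not pass (adjusted p = 0.121 by the quasi-binomial test). Its groups did not overlap, but the young mice were far from each other. The 4 tested CpGs in the 500 bases after Hoxd4, the called one included, averaged 31, 40.8, 39.8 and 40.5% against 21.8, 21.2, 19.6 and 21.9%. All 4 were higher in mid-aged mice. Both averages thus contain a gain that was called. At 74729436, 22 bases before the called CpG, the values were 28.4, 53, 45.1 and 43.8% against 30.4, 27.7, 20 and 27.8% (adjusted p = 0.0533 by the quasi-binomial test), with mid-aged mouse 1 among the young mice. Neighboring CpGs share reads, so they are not separate evidence. The other 197 CpGs of the Hoxd3 region averaged 6.64% ± 0.258 and 5.44% ± 0.417 (SD, n = 4 each).

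**Figure D2:**
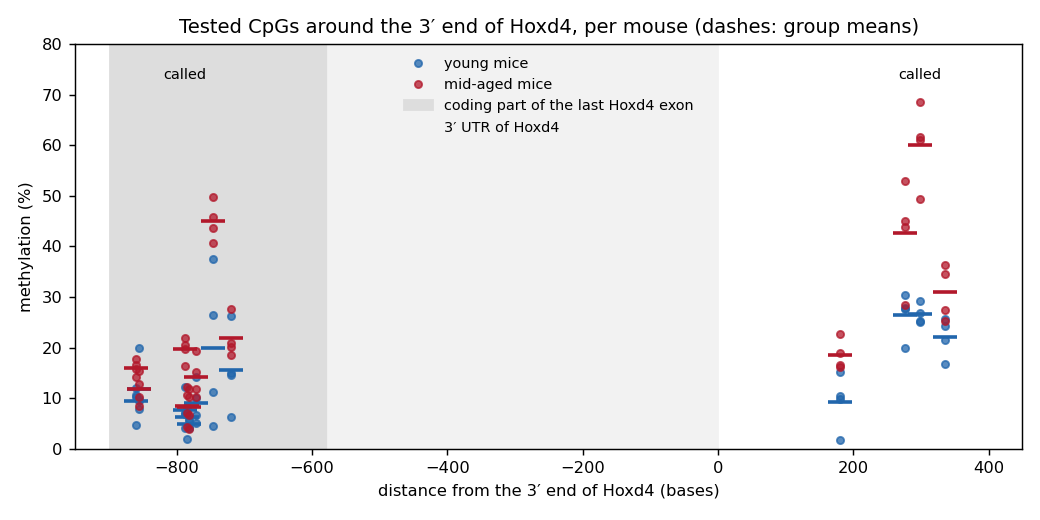
Methylation (%, vertical axis) of the 12 tested CpGs around the 3′ end of Hoxd4, by distance in bases from that end (horizontal axis). Points are mice (blue young, red mid-aged), dashes are group means, the dark band is the coding part of the last exon and the light band the 3′ UTR. The called CpG at 298 bases shows mid-aged mice at 49.3 to 68.5% and young mice at 25 to 29.2%.

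Averaged over whole gene regions, 2 of the 38 members rose, both of them at this locus, against 0.295% of all gene regions called higher. Regions were compared by limma on the mean methylation per mouse, with adjustment over all 24433 regions. Hoxd4 (45 tested CpGs, chromosome 2, 74711929 to 74729160) averaged 11.7, 11.1, 10.9 and 11.4% in mid-aged mice and 8.69, 7.96, 8.36 and 8.91% in young mice, a gain of 2.8 percentage points (SE 0.293, adjusted p = 0.0101 by limma). Hoxd3, which patterns the upper cervical vertebrae (209 CpGs, 74711927 to 74748442), averaged 7.63, 7.46, 7.99 and 7.64% against 5.97, 5.41, 6.34 and 6.01%, a gain of 1.75 points (SE 0.253, adjusted p = 0.0366 by limma). In both regions every mid-aged mouse was above every young mouse. All 45 Hoxd4 CpGs also lie in the Hoxd3 region, so the 2 calls are not independent. Without the 2 called CpGs, an alternative added after the data were seen, Hoxd4 kept its call (2.59 points, adjusted p = 0.0204 by limma) and Hoxd3 did not (1.54 points, adjusted p = 0.0566).
The Hoxd4 call held without each mouse in turn (adjusted p of 0.0389, 0.0424, 0.0304 and 0.0484 by limma without mid-aged mice 1 to 4, and 0.0252, 0.027, 0.0479 and 0.023 without young mice 1 to 4). The Hoxd3 call was lost without any of the 8 mice, mid-aged or young (0.0952, 0.106, 0.127 and 0.128, and 0.0752, 0.0637, 0.06 and 0.0791 in the same order). With reads thinned to equal coverage neither region was called (adjusted p = 0.151 by limma for both), and Hoxd4 was also lost with a coverage minimum of 3 reads (1.88 points, adjusted p = 0.209) and with the extent of 1 coding transcript (2.65 points, adjusted p = 0.062).

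The other 36 members did not pass the test over all genes, and most were higher in mid-aged mice. The mean was higher in 31 of the 38 members (60.6% of all gene regions were) and lower in 7. At an unadjusted p under 0.05 by limma, 19 members were higher and 0 lower, against 7.75% and 3.66% of all gene regions. In 13 members every mid-aged mouse lay above every young mouse, and in 0 below, against 5.35% and 2.4%. The median difference over the members was 0.966 percentage points, against 0.213 over all gene regions. Members of a cluster share CpGs and lie side by side, so they are not 38 separate observations.

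**Figure D3:**
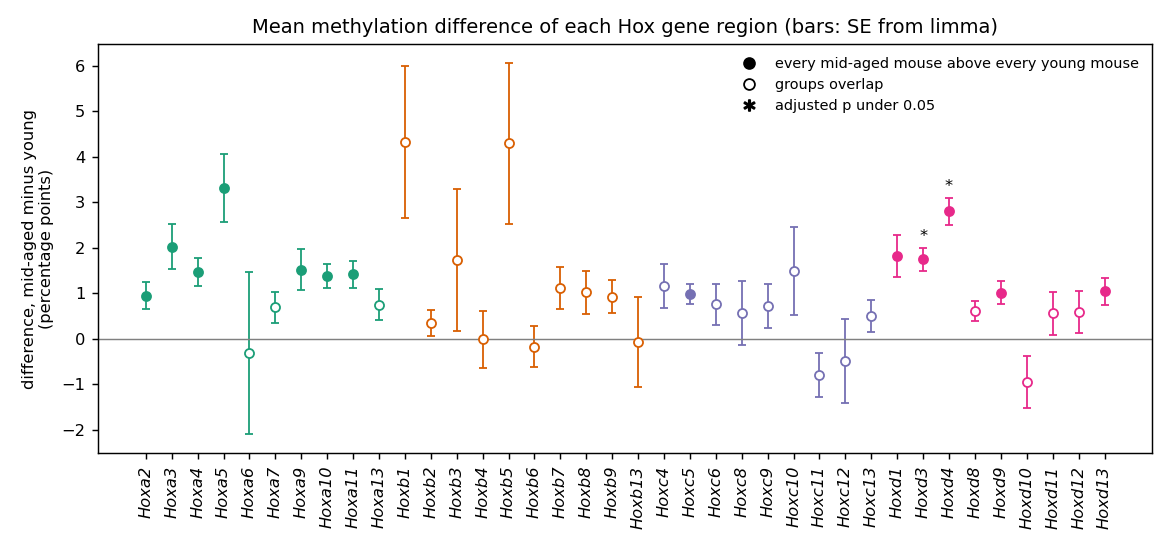
Difference in mean methylation (mid-aged minus young, percentage points, vertical axis) of each Hox gene region, in the order of the clusters, with bars of 1 SE from limma. Filled points are the 13 members whose ages do not overlap, open points overlap, and a star marks the 2 called regions (Hoxd3 and Hoxd4). Of these 13 members 7 are Hoxa genes, 5 Hoxd genes and 1 a Hoxc gene.

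In the Hoxa cluster, 9 of 10 members had a higher mean in mid-aged mice and in 7 the ages did not overlap, although none passed over all genes (lowest adjusted p = 0.0909 by limma). Hoxa5, a regulator of lung and of cervical and thoracic vertebrae, had the largest difference of the cluster, with 16.8, 16.8, 16.4 and 19.2% against 12.7, 13.7, 14.6 and 15% (3.32 points, SE 0.746). Hoxa3, required for the thymus and parathyroid, averaged 11.2, 12.4, 12.7 and 12.8% against 9.54, 10.7, 9.74 and 11.1% (2.02 points, SE 0.496), but 75 of its 173 CpGs belong to other members as well. Hoxa10 and Hoxa11, both needed in the uterus, had 6.81, 6.68, 6.76 and 7.31% against 5.4, 5.03, 5.75 and 5.88%, and 5.99, 7, 7.06 and 6.94% against 5.02, 5.52, 5.55 and 5.21%. All 4 had groups that did not overlap, and so had Hoxa2 (8.56% ± 0.353 and 7.61% ± 0.425), Hoxa4 (7.36% ± 0.263 and 5.9% ± 0.533) and Hoxa9 (7.79% ± 0.366 and 6.28% ± 0.902, SD, n = 4 each). Hoxa7 averaged 10, 10.6, 9.31 and 9.36% against 8.93, 9.08, 9 and 9.47%, with young mouse 4 among the mid-aged mice. Hoxa13, a gene of the digits, had overlapping values of 4.66% ± 0.318 and 3.92% ± 0.62, and Hoxa6 was the only member of the cluster with a lower mean in mid-aged mice (13.9% ± 1.7 and 14.2% ± 3.69, SD, n = 4 each). With a coverage minimum of 10 reads the direction of Hoxa6 turned, and its region was called higher (3.01 points, adjusted p = 0.00873 by limma), as were Hoxa3, Hoxa4 and Hoxa5.

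In the Hoxd cluster, 8 of 9 members had a higher mean and in 5 the ages did not overlap. Hoxd1, at the 3′ end of the cluster, averaged 3.61, 4.82, 5.43 and 4.5% in mid-aged mice and 3.44, 2.02, 3.14 and 2.49% in young mice (1.82 points, SE 0.46). Hoxd9 averaged 4.59, 4.4, 4.4 and 4.54% against 3.07, 3.52, 4.08 and 3.21%, and Hoxd13, which shapes the digits, 4.22, 4.15, 4.27 and 4.27% against 3.28, 2.37, 3.46 and 3.61%. The mid-aged mice of both genes lay within a narrow band above the young mice. Hoxd10 was the exception, with 3.58, 6.02, 4.48 and 4.05% against 5.22, 5.15, 6.51 and 5.05%, which is the lowest difference of any member (-0.952 points, SE 0.574) with overlapping groups. Hoxd8 had the lowest methylation of any member, with 2.4% ± 0.297 in young and 3.01% ± 0.199 in mid-aged mice (SD, n = 4 each), and 1 young mouse (2.8%) just above the lowest mid-aged mouse (2.73%). Hoxd11 and Hoxd12 had overlapping groups as well, with means of 4.77% ± 0.238 and 4.21% ± 0.985, and 7.79% ± 0.204 and 7.2% ± 0.953. In Hoxd8 a CpG of the first intron, at position 74705314, read 5.66, 4.9, 1.8 and 6.79% in mid-aged mice and 0% in all young mice, which at 31, 116, 46 and 62 reads allow up to 9.68, 2.59, 6.52 and 4.84% (adjusted p = 0.104 by the quasi-binomial test).

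In the Hoxb cluster 7 of 10 members had a higher mean, and in 0 of them were the ages apart. Hoxb1, which specifies a segment of the hindbrain, had the largest difference of all members (4.32 points, SE 1.67) from 11 CpGs, with 20.3, 15.7, 16.8 and 15.2% against 9.03, 11.6, 14.3 and 15.9%. Hoxb5 followed with 17.4, 16.2, 13.5 and 19.6% against 8.12, 12, 14.4 and 15% (4.3 points, SE 1.77). Neither passed over all genes (adjusted p = 0.382 and 0.411 by limma), and young mouse 4 lay among the mid-aged mice for each, as did young mouse 3 for Hoxb5. Hoxb7, Hoxb8 and Hoxb9, genes of the trunk, averaged 9.7% ± 0.92 and 8.58% ± 0.305, 4.92% ± 0.641 and 3.9% ± 0.777, and 5.73% ± 0.245 and 4.8% ± 0.686 (SD, n = 4 each), each with overlapping groups. Hoxb2 averaged 6.8% ± 0.319 and 6.45% ± 0.452, and Hoxb6 4.89% ± 0.334 and 5.06% ± 0.904. Hoxb4, known for its role in blood stem cells, averaged 6.06% ± 0.171 and 6.07% ± 1.36, and Hoxb13, a gene of the tail and the prostate, 4.61% ± 0.535 and 4.67% ± 2.17 (SD, n = 4 each). The largest loss of any Hox CpG was in the last exon of Hoxb4, at position 96320073 of chromosome 11, with 0, 6.06, 9.52 and 0% against 25, 17.4, 43.8 and 25%, and it did not pass (adjusted p = 0.226 by the quasi-binomial test). It rested on 128 reads in the mid-aged and 59 in the young mice, and the 0 of 27 and 0 of 47 reads in mid-aged mice 1 and 4 allow up to 11.1% and 6.38%.

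In the Hoxc cluster 7 of 9 members had a higher mean, and only Hoxc5 had ages that did not overlap. Hoxc5 averaged 6.95, 6.84, 6.9 and 6.89% against 5.47, 6.07, 5.86 and 6.26% (0.981 points, SE 0.219), and 136 of its 185 CpGs belong to other members as well. Hoxc4 averaged 4.7, 6.99, 6.44 and 6.81% against 5.18, 5.13, 5.09 and 4.9%, with mid-aged mouse 1 below the young mice. Hoxc6, Hoxc8, Hoxc9 and Hoxc10 differed by 0.76, 0.566, 0.721 and 1.49 percentage points (SE 0.45, 0.698, 0.486 and 0.964), all with overlapping groups. Hoxc11 and Hoxc12 had lower means in mid-aged mice, with 5.1% ± 0.384 against 5.89% ± 0.982 and 6.07% ± 0.475 against 6.55% ± 2.02. Hoxc13, a gene of hair and nails, had 6.26% ± 0.241 and 5.76% ± 0.687, within the spread of the mice (SD, n = 4 each).

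Of single CpGs outside the Hoxd4 locus, the lowest adjusted p belonged to a CpG of Hoxa9, a regulator of blood progenitors. It lies at position 52230339 of chromosome 6 and read 10.7, 12.3, 10.7 and 9.33% against 6.55, 5.21, 6.45 and 5.12% (4.9 points, adjusted p = 0.0566 by the quasi-binomial test). A CpG in the Hoxc5 region, at 102996726 of chromosome 15, read 25, 12.7, 15.4 and 24.5% against 0, 3.92, 2.9 and 4.35% (adjusted p = 0.086 by the same test), where the 0 of 40 reads in young mouse 1 allows up to 7.5%. The ages were apart at both CpGs, but neither was called. The CpG at letter 91 of the Hoxb3 sequence read 28.4, 21.1, 24.5 and 27.2% against 7.5, 13.6, 17.4 and 6.25% (14.1 points, adjusted p = 0.146 by the quasi-binomial test). That at letter 91 of the Hoxa11 sequence read 5.37, 8.24, 6.64 and 7.8% against 0, 1.02, 2.56 and 3.19% (5.32 points, adjusted p = 0.176 by the same test), where the 0 of 53 reads in young mouse 1 allows up to 5.66%. These 4 CpGs were chosen after their values were seen.

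Promoters, from 1500 bases before to 500 bases after the gene start, held at least 3 tested CpGs in 31 of the members. None of the 31 was called by limma, with the mean fraction or with its logit, against 0.0565% of all promoters in either direction. At an unadjusted p under 0.05 by limma 11 Hox promoters were higher and 0 lower, against 6.79% and 2.17% of all promoters. The mean was higher in 26 of the 31, against 60% of all promoters, and the median difference was 0.975 percentage points, against 0.152. The lowest adjusted p (0.161) was that of the promoter shared by Hoxd3 and Hoxd4, with 10 CpGs at 3.7, 3.04, 3.11 and 4.4% in mid-aged mice and 0.882, 2.09, 1.37 and 1.23% in young mice. Its ages did not overlap, and the difference was 2.17 points (SE 0.41). The same CpGs count for both members. The start used was the outermost annotated one, and the called CpG in the last Hoxd4 exon lies 16443 bases after it. Any start nearer the coding exons was not tested as a promoter. The Hoxc5 start (102967443) likewise lies close to that of Hoxc10 (102966796). The promoters with the highest methylation were those of Hoxb2 (30% ± 0.629 and 29.4% ± 1.78) and Hoxb5 (25.1% ± 3.26 and 18.8% ± 3.08, SD, n = 4 each), the latter with overlapping groups.

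By place in the gene, the difference ran from 0.909 percentage points in coding exons to 1.28 in introns, an order that was not tested. Of 870 CpGs in coding exons the mid-aged mice averaged 6.53% ± 0.126 and the young mice 5.62% ± 0.338, and of 565 in introns 8.42% ± 0.421 and 7.14% ± 0.182 (SD, n = 4 each). Coding CpGs of the last exon, which in Hox genes carries the homeobox, averaged 7.5, 8.1, 8.16 and 8.56% against 6.66, 6.35, 8.04 and 7.57% over 240 CpGs, with overlapping ages. Those of earlier exons averaged 6, 5.83, 5.97 and 5.98% against 5.37, 4.73, 5.21 and 4.85% over 630 CpGs, with no overlap. Of the 22 members with tested CpGs in the coding part of the last exon, 16 had a higher mean in mid-aged mice, and only Hoxa5 and Hoxd4 had ages that did not overlap. The Hoxd4 mean includes the called CpG of that exon, so its gap is not separate from that call. Over all gene regions, 60.6% had a higher mean and 5.35% had every mid-aged mouse above every young mouse. The same shares for the last exons of all genes are not given here. In the last exon of Hoxa5, 7 CpGs averaged 29.7, 31.1, 31.7 and 34.6% against 27.7, 24.8, 29.2 and 27.3%.

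By paralogue group, the level was highest in groups 3 and 5 and lowest in group 8. Each CpG was counted here for the shortest member region that held it. Groups 1 to 4 averaged 9.08% ± 0.391 in mid-aged and 7.56% ± 0.262 in young mice over 691 CpGs, groups 5 to 8 7.78% ± 0.0935 and 6.72% ± 0.62 over 426, and groups 9 to 13 6.13% ± 0.0518 and 5.31% ± 0.284 over 1060 (SD, n = 4 each). The ages did not overlap in any of these 3 sets. The differences were 1.52, 1.07 and 0.818 percentage points, and their order was not tested. Group 5 had the largest difference of the 13 groups (2.51 points, 11.7% ± 0.908 and 9.24% ± 1.31), and groups 12 (0.125 points) and 6 (0.176 points) the smallest.

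**Figure D4:**
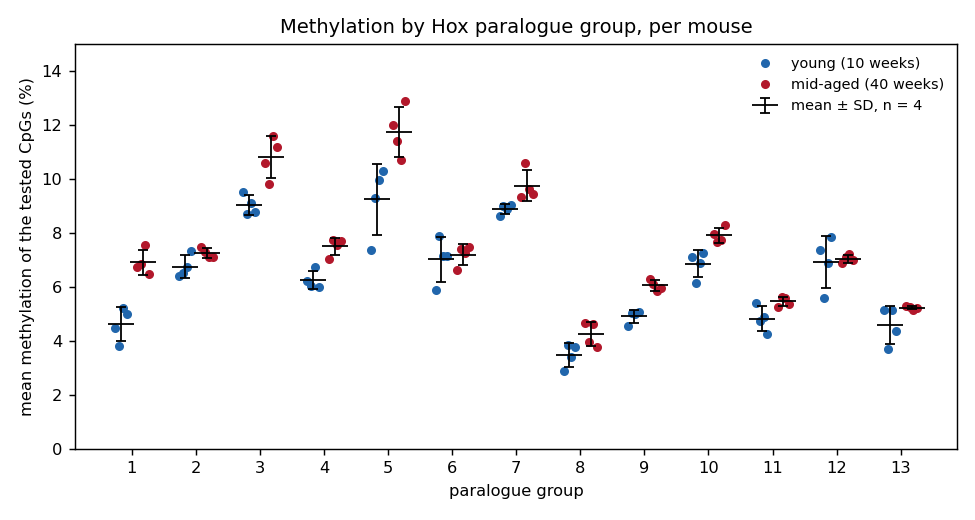
Mean methylation (%, vertical axis from 0) of the tested CpGs of each Hox paralogue group (horizontal axis), per mouse, with the mean ± SD of 4 mice in black. Blue points are young and red points mid-aged mice. Group 8 has the lowest means (3.47% in young and 4.25% in mid-aged mice), and in group 12 the mid-aged mice lie within the range of the young mice.

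Most Hox CpGs were low, and these were higher in mid-aged mice. In young mice 2065 of the 2177 Hox CpGs (94.9%) were under 20% methylated, against 48.6% of all tested CpGs. Of these, the 1526 dense CpGs averaged 5.41% ± 0.0722 in mid-aged and 4.3% ± 0.413 in young mice, with a median difference of 0.929 percentage points, against 0.225 over all 365186 dense low CpGs. The 81 sparse low CpGs averaged 11% ± 0.793 and 9.06% ± 0.857, with a median of 1.83 points, against 1.05 over all sparse low CpGs (SD, n = 4 each). Of the low Hox CpGs of any density 67% had a higher mean and 32.3% a lower one, against 56.8% and 34.2% of all low CpGs. Every mid-aged mouse lay above every young mouse in 5.08% and below in 0.242%, against 3.05% and 0.248%. The part of the lower depth of the young libraries in these shares was not tested. The 111 Hox CpGs at 20 to 80% in young mice averaged 29.5% ± 1.78 in mid-aged and 29.6% ± 3.46 in young mice, within the spread of the mice. Classes set by the young mice use the values that are then compared. With classes set by the mean of all 8 mice, an alternative added after the data were seen, the medians were 0.897 for dense and 1.83 for sparse low Hox CpGs, against 0.214 and 0.592 over all tested CpGs, and the 112 Hox CpGs at 20 to 80% averaged 31% ± 1.86 and 28.3% ± 2.06, with overlapping ages.

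A few stretches within the clusters were not low. In windows of 500 bases with at least 3 tested CpGs, 11 stretches averaged over 20% over all mice, and they held 3 to 21 CpGs each. In 2 of them the ages did not overlap, the intron stretch after Hoxd4 described above and the 11 CpGs of the Hoxa5 sequence, with 22.3, 23.4, 23.9 and 26.3% against 20.4, 18.7, 21.9 and 21%. The stretch after Hoxd4 holds a called CpG, so its gap is not separate from that call. The stretch upstream of Hoxb5 (9 CpGs, chromosome 11, 96302060 to 96302455) read 29.8, 22.6, 23.2 and 24.8% against 16.5, 23.2, 16.9 and 18.8%, with young mouse 2 among the mid-aged mice. These are also the tested CpGs of the Hoxb5 promoter. In the other 8 stretches the ages overlapped, with differences from -3.4 to 3.96 percentage points. The share of such stretches without overlap over the whole genome is not given here.

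Among these stretches, mice of 1 age differed most from each other in an exon of Hoxb3, a gene of the hindbrain and neck. There 21 CpGs (chromosome 11, 96344233 to 96344689) averaged 33.3, 18, 27.6 and 28.9% in mid-aged mice and 40, 21.8, 25.6 and 16.9% in young mice. The SD was 6.44 and 9.91 percentage points (n = 4 each), against a difference of 0.891 between the ages. Coverage was low in this stretch, with median reads of 44, 31, 24 and 29 in mid-aged and 10, 48, 23 and 16 in young mice. Over the whole Hoxb3 region the values were 17.7, 12.7, 17.5 and 17.6% against 17.9, 14.4, 14.5 and 11.7% (1.74 points, SE 1.56).

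**Figure D5:**
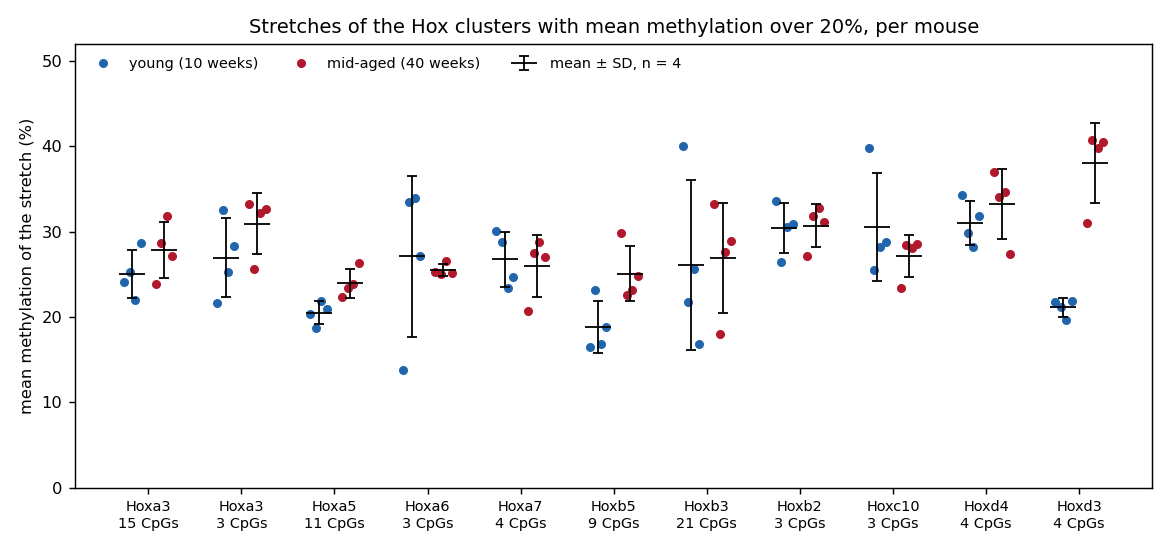
Mean methylation (%, vertical axis from 0) of the 11 stretches over 20% in the Hox clusters, named by the member that holds them and their number of CpGs, per mouse, with the mean ± SD of 4 mice in black. Blue points are young and red points mid-aged mice. Hoxb3 has the widest spread of mice (16.9 to 40%), and the Hoxd3 stretch the widest gap between the ages (38% and 21.1%).

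The homeobox and Pax genes outside the clusters, many of which are Polycomb targets as Hox genes are, also had a higher mean over CpGs in mid-aged mice. Over 10920 CpGs of these 112 genes the mid-aged mice averaged 9.92% ± 0.0826 and the young mice 9.15% ± 0.149 (SD, n = 4 each), with a median CpG difference of 0.68 percentage points. With pooled reads the direction of this list turned, with 7.53% ± 0.838 in the mid-aged and 8.62% ± 1.69 in the young group and overlapping ages, while the Hox difference stayed positive. The Hox median was 0.979, and no test of that contrast between the lists was made. In the homeobox and Pax list every mid-aged mouse lay above every young mouse in 4.95% of CpGs, and below in 0.577%. Hox CpGs had 4.92% and 0.322%. At an unadjusted p under 0.05 by the quasi-binomial test 8.66% were higher and 2.32% lower, against 9.23% and 1.52% of Hox CpGs. Of 111 gene regions in the list 103 had a higher mean, against 60.6% of all gene regions. At an unadjusted p under 0.05 by limma 44 were higher and 0 lower, against 7.75% and 3.66%. The 2 called regions were Gbx2 and Irx3, both higher in mid-aged mice (adjusted p = 0.0217 and 0.0419 by limma), against 0.295% of all gene regions called higher.

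Genes that act with Hox proteins or on Hox genes were described by list, and their counts stand beside the 60.6% of all gene regions with a higher mean, and the 7.75% higher and 3.66% lower at an unadjusted p under 0.05. Of the 9 TALE partners (the Pbx, Meis and Pknox genes, whose proteins bind DNA together with Hox proteins), 0 gene regions were called by limma and 2 had an unadjusted p under 0.05. Meis1 held the most called CpGs of that list (2, both higher). Of 29 Polycomb subunits 0 regions were called, with 3 higher and 1 lower at an unadjusted p under 0.05 by limma, and of 12 Trithorax genes and H3K27 demethylases 0 were called, with 1 higher. Of 18 genes of the retinoic acid pathway and other Hox regulators, 1 region was called by limma, that of Cyp26c1, an enzyme that degrades retinoic acid. It averaged 87.6, 85.3, 88 and 87.2% in mid-aged mice and 68.7, 72.7, 73.9 and 74.4% in young mice (adjusted p = 0.0061 by limma), and 34 of its 92 CpGs rose.
Of 13 non-coding genes in the Hox clusters with enough CpGs 0 were called, with 4 higher at an unadjusted p under 0.05 by limma, and much of their sequence is also that of members. The 8 genes beside the clusters all had a higher mean in mid-aged mice, 3 of them with an unadjusted p under 0.05, and 0 were called by limma, where the same shares over all gene regions apply.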

How the data were processed

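The deposited tables give, strand by strand on mm10, a percent methylation and a count of covering reads per cytosine, which the authors made with the DEEP project's pipeline for each mouse separately. Per the submitters' processing notes, tools were BWA 0.6.2, Trim Galore 0.4.2, Picard 1.115, SAMtools 1.3 and FastQC. For methylation calling, no tool is given in the sources used here. Percent times coverage gave whole reads, strands were summed, and 897285 CpGs with at least 5 reads in all 8 libraries were kept.

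CpGs were tested with a quasi-binomial F test, its dispersion moderated by limma 3.58.1 and not below 1, and region means with limma with a trend (R 4.3.3), each with Benjamini-Hochberg adjustment over the genome. Both tests were run on simulated counts, without and with added spread between mice. Without it, the CpG test recovered 14 of 67 gains of 10 percentage points and 58 of 66 of 30 points. With the largest added spread it recovered 0 of 67 and 8 of 66. The region test recovered 150 and 112 of 200 regions with gains of up to 5 points, in the same order. Unchanged features called were 43 and 1 CpGs, and 14 and 8 regions. Positions follow GENCODE vM21, and sequences were read with pysam 0.24.0. Members and lists were chosen with earlier results of these data known. Per-mouse values were to be given for called CpGs and members with a called region, and others named were chosen after their values were seen. Genes of the lists were named where a region was called or called CpGs were most frequent. The other assays and mice of the study were not used here.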

Additional observations from a re-analysis of the deposited data

Results flagged for a closer look

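Of 90 groups of 4 mice examined (5 sets of Hox genes, 38 gene regions and 2 called CpGs, at each age), 6 had a mouse far from the other 3 by Dixon's test at the 95% level, which sets the gap to the nearest mouse against the whole range. Chance flags about 1 group in 20. In the Hoxa5 region the highest mid-aged mouse was at 19.2% and the next at 16.8%. In the Hoxa9 region the highest mid-aged mouse was at 8.33% and the next at 7.65%. In the Hoxa11 region the lowest mid-aged mouse was at 5.99% and the next at 6.94%. In the Hoxb3 region the lowest mid-aged mouse was at 12.7% and the next at 17.5%. In the Hoxb4 region the highest young mouse was at 8.11% and the next at 5.48%, and in the Hoxd10 region at 6.51% and 5.22%.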

How the results depend on the processing

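Of the 2 Hox CpGs called, 1 remained with reads thinned to equal coverage and 1 with a minimum difference of 20 percentage points. With limma on M values 1 of the 2 remained, among 8 called. All called CpGs went from 1466 to 1593, 1113 and 1516 in these settings. Leaving out each mouse gave 1 to 4 called Hox CpGs. Called Hox gene regions numbered 5 with a coverage minimum of 10 reads (Hoxd4, Hoxa3, Hoxa4, Hoxa5 and Hoxa6; 0.653% of all regions), 0 with thinned reads (0.262%), 1 with the extent of 1 coding transcript (Hoxd3, with Hoxd4 lost; 0.496%) and 1 without the 2 called CpGs (0.516%), against 0.52% in the main test, and leaving out each mouse gave 1 in every case. A coverage minimum of 3 reads gave 2 called Hox CpGs and 2 gene regions (Hoxd3 and Hoxa3), with Hoxd4 not called (adjusted p = 0.209 by limma). Hox promoters stayed at 0 called under all 14 alternatives. Runs of called CpGs were counted again only with at most 100 bases between neighbors, and stayed at 0. The same 2 calls could not form a run there either. The cluster differences stayed positive under their 14 alternatives (0.411 to 1.66 percentage points for Hoxa, 0.925 to 1.33 for Hoxb, 0.26 to 0.902 for Hoxc and 0.799 to 1.19 for Hoxd). Thinned reads gave 0.902 for Hoxc.

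The labels do not say whether the replicate numbers of the titles pair the mice. The deviations of mice with the same number correlated at -0.00252 to 0.00805. Counting error lowers such a correlation, so it cannot decide the question. With the replicate block 0 Hox CpGs and 0 Hox gene regions were called, against 0 CpGs and 17 gene regions (11 higher, 6 lower) over the genome. Hoxd4 and Hoxd3 then had an adjusted p of 0.0861 and 0.149 by limma. The CpG at 74729458 had an adjusted p of 0.789 by the quasi-binomial test. In that setting 116 Hox CpGs had an unadjusted p under 0.05 (234 without the block). Young libraries were shallower than mid-aged ones.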
